A study of Homo sapiens with 4 samples.

Results

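The 10 genes described here encode nuclear proteins, and each had a narrow IP peak inside its coding sequence: NCL, HMGB2, HMGN5, RANGAP1, UPF2, EHMT2, BRD9, ATAD2, ARID4B and ARGLU1. They were chosen from the deposited peak calls themselves, as a list of nuclear protein genes with focal coding peaks. A region was assigned to a gene where it overlapped the annotated gene by 1 bp. Having a peak, its narrow width and its place in coding sequence are thus how the genes were selected and not findings. They are 10 of 58735 annotated genes, and they held 10 of the 229 regions called in wild type cells and 11 of the 194 called in ZCCHC7-overexpressing (ZCCHC7-OE) cells. Over all protein-coding genes 0.456% had a region in wild type, 0.431% in ZCCHC7-OE and 0.326% in both, and over all genes of any type the shares were 0.232% and 0.216%.

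Cells of the human colorectal cancer line RKO were either wild type or overexpressed ZCCHC7, which has zinc-knuckle motifs and belongs to TRAMP, the nuclear complex that marks RNA for the exosome. Each genotype was sequenced as RNA recovered with an antibody (IP), read here as that against SRSF1, and as input RNA. There was 1 library of each kind, which makes 4 libraries, and no treatment is named. How ZCCHC7 was overexpressed, and whether the cells were 1 clone, is not given in the sources used here. The laboratory protocol names the SRSF1 antibody and also an anti-m6A step, and it does not say which of them acted on the IP libraries. With 1 library per group there is no replicate check of any difference below, and every interval covers counting error only.

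SRSF1 is an SR protein, a family of splicing factors that bind exons and help the splicing machinery to choose splice sites. It binds purine-rich exonic sequence, of the kind found in exonic splicing enhancers, and it stays on many messages during export and translation. Codons for lysine and glutamate consist of purines alone, so stretches of protein that are rich in these residues are encoded by purine-rich RNA. Several of the 10 proteins are known for acidic, glutamate-rich or arginine-rich parts, whose codons need not all consist of purines alone. Nucleolin (NCL) has acidic stretches ahead of its RNA-binding domains, and HMGB2 ends in an acidic tail. HMGN5 has a long acidic C-terminal region, and RANGAP1 has an acidic stretch between its leucine-rich repeats and its SUMO-conjugated C-terminal domain. EHMT2 has a glutamate-rich stretch ahead of its ankyrin repeats and SET domain, ATAD2 an acidic region ahead of its ATPase domain and bromodomain, and ARGLU1 an arginine-rich N-terminal and a glutamate-rich C-terminal part. Whether the summits lay inside these stretches was not determined, because no protein or genome sequence was used here, and positions are given as codon numbers. The word nuclear is loose for a pair of them, as RANGAP1 is best known at the cytoplasmic face of the nuclear pore and UPF2 works mostly in the cytoplasm.

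Depth was 1070075 IP tags and 142404 input tags in wild type, and 690876 IP tags and 97545 input tags in ZCCHC7-OE. A tag is 1 aligned read, which the caller extended to a fragment of 147 bp for wild type or 154 bp for ZCCHC7-OE. The pileup at a summit gave whole IP tags at all 285 summits called in wild type and all 238 called in ZCCHC7-OE, and the local background gave the input tags over the same summit. None of 8 colon epithelium marker genes had a region in either list (0 of 8), where 0.456% and 0.431% of all protein-coding genes had one. Of 8 markers of other cells 1 did: HBB, a globin of red cells, with 157 IP tags per 1000000 in wild type, 362 in ZCCHC7-OE and 0 input tags in either. The HBB summits lay in an intron of the transcript used in both lists. A gene without a peak is not a gene without RNA, so these lists do not measure cell identity, and what the HBB peak has to do with the 10 genes was not tested.

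All summits of the 10 genes lay in coding sequence, 10 of 10 (wild type) and 11 of 11 (ZCCHC7-OE), which is how the list was chosen. Of all 229 wild type regions, 24 of other genes with at most 2 coding peaks also had a coding summit. So did 43 of genes with 3 or more, mitochondrial genes left out. In ZCCHC7-OE these were 28 and 28 of 194. Every gene had 1 region with 1 summit in each list, except ARGLU1, which had a further region in ZCCHC7-OE alone. Coordinates are those of the deposited files, and all 10 genes overlap the position of the same symbol in RefSeq's GRCh38.p14 gene table. All 10 genes had regions of both lists that overlapped, with summits 0 to 45 bp apart and a median of 3.50 bp. In 9 of the 10 genes the summits lay within 11 bp of each other. Among the other 100 loci with 1 summit in each list the median distance was 6.50 bp.

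**Figure D1:**
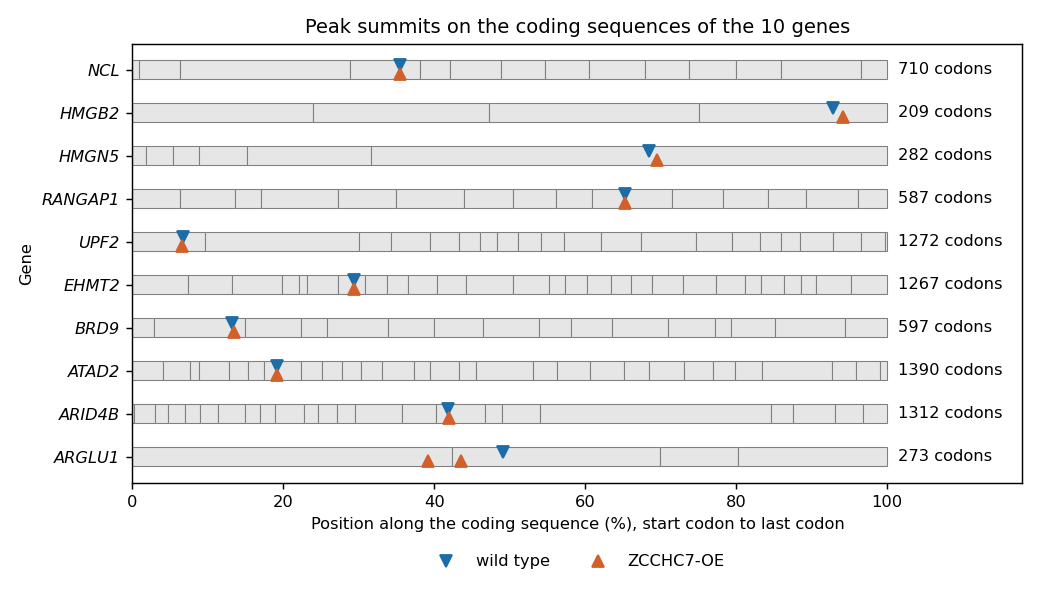
Position of each peak summit along the coding sequence of the 10 genes, in percent from the start codon to the last codon, with wild type as blue triangles pointing down and ZCCHC7-OE as orange triangles pointing up; vertical lines mark exon boundaries and the number of codons stands at the right. Summits sit from 6.68% along the coding sequence in UPF2 to 92.8% in HMGB2 in wild type, and the summits of both genotypes fall close together in all genes but ARGLU1.

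The first of these genes by role are chromatin and nucleolar proteins with acidic parts. NCL encodes nucleolin, an abundant nucleolar protein of ribosomal RNA synthesis and processing. Its regions, chr2:231460619-231460856 in wild type and chr2:231460613-231460866 in ZCCHC7-OE, lay on exon 4 of 14 (198 bp), and both summits fell on the same base, 231460725, in codon 252 of 710. HMGB2 encodes a high-mobility group protein that bends DNA. Its summits lay in the last exon (5 of 5), at codon 194 of 209 in wild type (chr4:173332004-173332239) and codon 197 in ZCCHC7-OE (chr4:173332000-173332189), which is 15 and 12 codons from the end of the protein. These HMGB2 regions ran past the stop codon: 156 bp of 236 bp (wild type) and 107 bp of 190 bp (ZCCHC7-OE) were coding. HMGN5 encodes a nucleosome-binding protein that loosens chromatin. Its summits lay in the last exon (7 of 7, 1530 bp), at codon 193 of 282 in wild type (chrX:81114823-81114976) and codon 196 in ZCCHC7-OE (chrX:81114748-81115046).

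The next group reads or writes chromatin marks. EHMT2 encodes G9a, a methyltransferase of histone H3 lysine. Its regions, chr6:31889410-31889636 and chr6:31889403-31889643, covered the whole of exon 7 of 27, a short exon of 135 bp, with summits 1 bp apart in codon 372 of 1267. BRD9 encodes a bromodomain subunit of the non-canonical BAF chromatin remodelling complex. Its summits lay in exon 2 of 16 (215 bp), 31 and 27 bp from the exon's 3′ end, at codons 79 and 80 of 597 (chr5:891556-891785 and chr5:891547-891792). ATAD2 encodes an ATPase with a bromodomain that is found on chromatin of dividing cells. Its summits lay in exon 7 of 28 (204 bp), at codons 267 and 266 of 1390 (chr8:123369835-123370089 and chr8:123369848-123370063). ARID4B encodes a subunit of the SIN3 histone deacetylase complex. Its summits lay in exon 17 of 24 (258 bp), at codons 548 and 551 of 1312 (chr1:235213853-235214094 and chr1:235213846-235214014).

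The remaining genes act on RNA or on nuclear transport. RANGAP1 encodes the GTPase-activating protein of Ran, which keeps Ran in its GDP form outside the nucleus. Its summits were 2 bp apart in exon 10 of 15 (187 bp), both in codon 383 of 587 (chr22:41254327-41254523 and chr22:41254315-41254538). UPF2 encodes a core factor of nonsense-mediated decay that bridges UPF1 and UPF3. Its summits were 1 bp apart in exon 1 of 21 of the transcript used (839 bp), at codons 85 and 84 of 1272 (chr10:12035068-12035297 and chr10:12035067-12035281). ARGLU1 encodes a protein that works with the Mediator complex and in splicing. Its shared summits lay in exon 2 of 4 (226 bp), at codon 134 of 273 in wild type (chr13:106559511-106559746) and codon 119 in ZCCHC7-OE (chr13:106559591-106559752). The ZCCHC7-OE summit of that exon stood 9 bp from the exon's 5′ end, against 54 bp in wild type. The further ZCCHC7-OE region of ARGLU1 (chr13:106567480-106567726) had its summit in exon 1 at codon 107, 27 bp from that exon's 3′ end.

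The choice of transcript moved some of these codon numbers. Another coding transcript put the HMGN5 summits at codons 173 and 176, the EHMT2 summits at codon 315, and the BRD9 summits at codons 28 and 29. In ATAD2 the summit lay in an exon of 4 coding transcripts but in the coding part of 1 of them, and in ARID4B it lay in an exon of 3 of 4. The summits of HMGB2, RANGAP1 and UPF2 had the same codon in each of 3 coding transcripts, and NCL and ARGLU1 had 1 coding transcript there.

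All regions were longer than the fragment itself, by less than 1 further fragment length. They were 154 to 255 bp long in wild type (median 233 bp) and 162 to 299 bp in ZCCHC7-OE (median 224 bp), which is 7 to 108 bp and 8 to 145 bp more than 1 extended fragment. A region held 3.55% to 24.9% of its gene's coding bases in wild type (median 8.49%) and 3.55% to 35.3% in ZCCHC7-OE (median 8.54%). The largest share was that of HMGN5 in ZCCHC7-OE. Regions lay wholly inside the exon of the summit in 2 of 10 cases in wild type versus 4 of 11 in ZCCHC7-OE. The others ran past an exon edge: in EHMT2 by 34 bp upstream and 58 bp downstream in wild type, in BRD9 by 84 bp downstream, in ARGLU1 by 89 bp upstream, in ARID4B by 68 bp upstream, in ATAD2 by 65 bp upstream, in NCL by 50 bp downstream, in RANGAP1 by 29 bp upstream and in HMGB2 by 1 bp. The caller extended tags along the genome, so that a fragment spliced to the next exon and a fragment of unspliced RNA cannot be told apart in these overhangs.

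**Figure D2:**
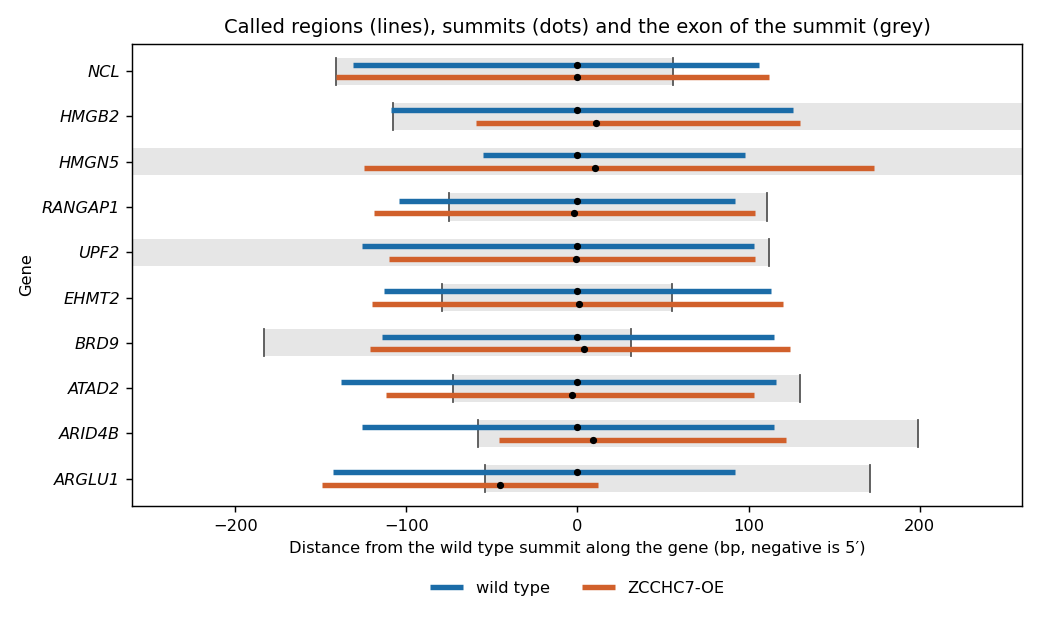
Called regions (blue lines for wild type, orange lines for ZCCHC7-OE), summits (black dots) and the exon holding the summit (grey, dark ticks at its ends) for the 10 genes, as distance in bp along the gene from the wild type summit. The regions of NCL, RANGAP1, EHMT2, BRD9, ATAD2 and ARGLU1 extend beyond an exon edge in both genotypes, those of UPF2 and HMGN5 lie inside their exons, and the ARGLU1 region of ZCCHC7-OE is shifted by 45 bp at the summit toward the 5′ side.

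The number of IP tags at the summits covered more than a 10-fold range. NCL had the most, 755 tags in wild type, or 706 per 1000000 (95% Poisson interval 656 to 758), and 537 in ZCCHC7-OE, or 777 per 1000000 (713 to 846). NCL ranked 5 of 229 regions by tags in wild type versus 8 of 194 in ZCCHC7-OE. RANGAP1 followed with 353 tags (329.9 per 1000000, 296 to 366) in wild type and 285 (412.5, 366 to 463) in ZCCHC7-OE. UPF2 had 306 tags (286 per 1000000, 255 to 320) in wild type and 139 (201, 169 to 238) in ZCCHC7-OE. These were the genes of the list with the most wild type tags, while the ZCCHC7-OE tags of BRD9 exceeded those of UPF2. BRD9 had 167 tags in wild type (156 per 1000000, 133 to 182) and 171 in ZCCHC7-OE (247.5, 212 to 288).

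The other genes had fewer. HMGB2 had 134 tags in wild type versus 87 in ZCCHC7-OE, which is 125 per 1000000 (105 to 148) and 126 (101 to 155). ARGLU1 had 131 tags in exon 2 in wild type (122 per 1000000, 102 to 145) and 93 in ZCCHC7-OE (135, 109 to 165), and its ZCCHC7-OE region in exon 1 had 85 (123, 98.3 to 152). ATAD2 had 138 tags in wild type (129 per 1000000, 108 to 152) and 48 in ZCCHC7-OE (69.5, 51.2 to 92.1), the fewest of the 10 genes in that genotype. The tags of EHMT2 and ARID4B were low in both genotypes: EHMT2 had 74 (69.2 per 1000000, 54.3 to 86.8) and 64 (92.6, 71.3 to 118). ARID4B had 71 (66.4 per 1000000, 51.8 to 83.7) and 63 (91.2, 70.1 to 117). HMGN5 had the fewest in wild type, 60 (56.1 per 1000000, 42.8 to 72.2), and 122 in ZCCHC7-OE (177, 147 to 211). By tags per 1000000 the neighbours HMGB2, ATAD2 and ARGLU1 in wild type, and likewise EHMT2, ARID4B and ATAD2 in ZCCHC7-OE, had overlapping intervals.

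Input RNA was also seen at most of these sites, at counts far too low for close comparison. NCL had 20 input tags over its wild type summit and 14 over its ZCCHC7-OE summit, 140 and 144 per 1000000. RANGAP1 had 10 and 7 input tags. HMGB2 had 6 in wild type versus 1 in ZCCHC7-OE, BRD9 had 3 and 4, HMGN5 had 1 and 3, and ARGLU1 had 3 at each of its summits. UPF2 had 2 in wild type versus 0 in ZCCHC7-OE, where 3 lay in the 1000 bp around the summit. EHMT2 and ATAD2 each had 1 in wild type versus 0 in ZCCHC7-OE, and ARID4B had 0 in both. For the ratios below, 3 tags were put in place of a count of 0, or 21.1 per 1000000 in wild type versus 30.8 in ZCCHC7-OE. The upper 95% Poisson limit of a count of 0 is higher, 25.9 per 1000000 in wild type versus 37.8 in ZCCHC7-OE.

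Set against input per 1000000, IP tags were higher at every summit of the 10 genes, which is what a call requires. The ratio of IP to input was 5.02 at NCL in wild type (95% exact conditional interval 3.23 to 8.27) and 5.42 in ZCCHC7-OE (3.20 to 9.97). At RANGAP1 it was 4.70 (2.52 to 9.88) and 5.75 (2.75 to 14.4). The ratios of these 2 genes, which had the most input tags, are the best measured of the list. UPF2 stood at 20.4 in wild type (5.59 to 169) and at 6.54 in ZCCHC7-OE with 3 tags in place of the 0. Such ratios with 3 tags in place of 0 are not 95% limits, and they leave out the counting error of the IP tags. BRD9 had 7.41 (2.49 to 36.3) and 6.04 (2.32 to 22.4), and HMGN5 had 7.98 (1.38 to 321) and 5.74 (1.92 to 28.2). HMGB2 had 2.97 in wild type (1.33 to 8.24) and 12.3 in ZCCHC7-OE (2.15 to 491), and ARGLU1 had 5.81 (1.95 to 28.5) and 4.38 (1.45 to 21.6), with 4.00 (1.32 to 19.8) in exon 1. With the same 3 tags, ARID4B stood at 3.15 in wild type and 2.96 in ZCCHC7-OE. ATAD2 and EHMT2 had wild type ratios of 18.4 (3.24 to 731) and 9.85 (1.71 to 394), each resting on 1 input tag. In ZCCHC7-OE they stood at 2.26 and 3.01, again with 3 tags in place of 0. The intervals of all genes with a measured ratio overlapped within each genotype, so no order among them is shown.

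**Figure D3:**
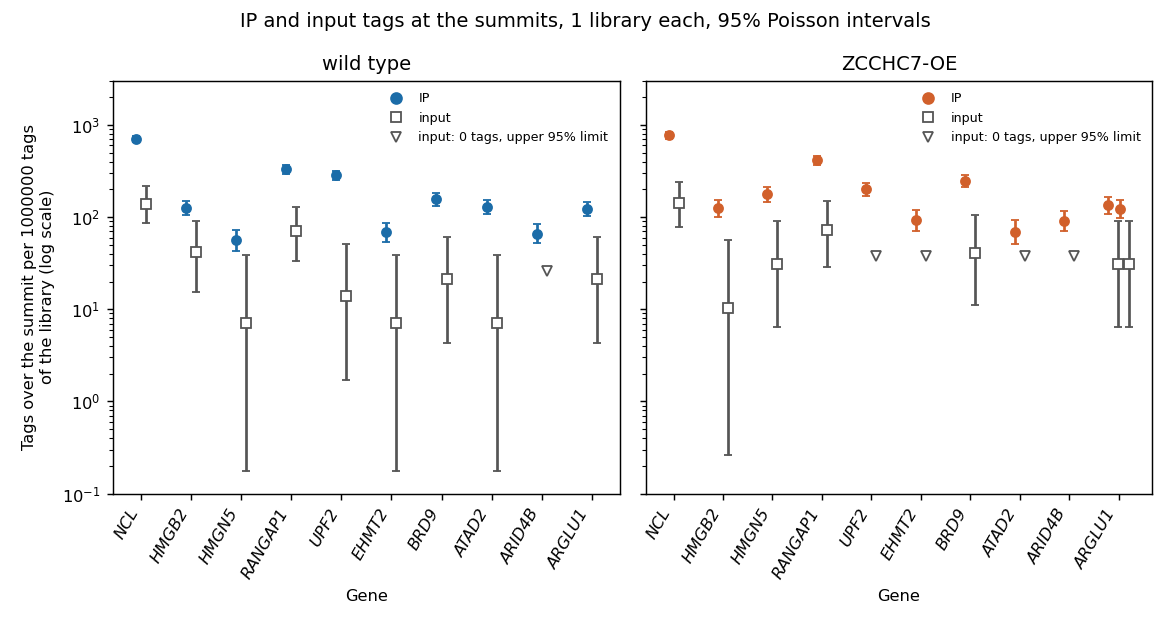
Tags over the summit per 1000000 tags of the library on a log scale, for IP (filled circles) and input (open squares) in wild type (left) and ZCCHC7-OE (right), 1 library each, with 95% Poisson intervals; open triangles mark the upper 95% limit where the input held 0 tags. IP values run from 56.1 at HMGN5 to 706 at NCL in wild type, and the input intervals are narrowest at NCL and RANGAP1.

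In the authors' deposited table, where fold is pileup plus 1 over local background plus 1, UPF2 had the highest fold of these genes in both lists, 13.9 in wild type (rank 17 of 229 regions) and 14.1 in ZCCHC7-OE (rank 27 of 194). The lowest were HMGB2 in wild type, 2.69 (rank 197), and ARGLU1 in ZCCHC7-OE, 3.25 and 3.53 (ranks 137 and 130). By the authors' deposited table the median fold of the members' regions was 5.13 in wild type versus 5.16 in ZCCHC7-OE, against 4.04 and 4.62 over all regions. In wild type 8 of 10 member regions passed a q-value of 0.05, where 44.5% of all regions did, and in ZCCHC7-OE 9 of 11 did, against 52.1% of all regions. The regions that missed it were those of HMGB2 and HMGN5 in wild type and both of ARGLU1 in ZCCHC7-OE. The lowest -log10 p in the authors' deposited table was 4.24 at HMGB2 in wild type and 4.79 at ARGLU1 exon 1 in ZCCHC7-OE, where the call needed 2.30. These figures describe peaks that selected the genes and carry no test.

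Between the genotypes, IP tags per 1000000 at these loci went in both directions. The 140 loci with a region in both lists had a median of 0.38 for the log2 ratio, ZCCHC7-OE over wild type, and a locus is read here against that shift as well as against 0. The 10 genes had a median of 0.23 and the other loci 0.41. Against the shift 1 gene was higher, 3 were lower and 6 had intervals that included it, where 23.6% of all shared loci were above and 12.9% below. Against 0 the counts were 3 higher, 2 lower and 5 including 0, where 40.0% of all shared loci were above and 4.29% below. Shares of this size over 10 genes do not set the list apart, and no test was made.

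HMGN5 was the gene that was higher. Its tags went from 56.1 to 177 per 1000000, a log2 ratio of 1.66 (95% interval 1.20 to 2.13) and 1.27 relative to the shift (0.82 to 1.75). Its input went the same way, from 1 tag to 3. The conditional odds ratio of raw IP and input tags, ZCCHC7-OE over wild type, was -0.56 on the log2 scale (-6.30 to 3.12). This odds ratio is not scaled by the library totals, whose ratio of IP to input was somewhat lower in ZCCHC7-OE, so it lies slightly below a ratio of scaled enrichments. The HMGN5 region was 154 bp long in wild type versus 299 bp in ZCCHC7-OE. A change of binding at HMGN5 and a change in its RNA level cannot be told apart at this input depth.

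ATAD2 and UPF2 were the genes that were lower against both references. ATAD2 went from 129 to 69.5 tags per 1000000, a log2 ratio of -0.89 (-1.40 to -0.41), the lowest of all 140 shared loci. UPF2 went from 286 to 201, a log2 ratio of -0.51 (-0.81 to -0.21), rank 8 from the lowest. The summits of both stayed within 3 bp of the wild type position. Input at these sites was 1 tag and then 0 at ATAD2, and 2 tags and then 0 at UPF2, which is too few to compare. The authors' deposited fold at UPF2 was nearly equal in the 2 lists, and the log2 ratio of these folds was 0.021 in place of -0.51.

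NCL was lower against the shift and not against 0. Its log2 ratio was 0.14 (-0.02 to 0.30), or -0.24 relative to the shift (-0.40 to -0.08). The log2 odds ratio of its raw IP and input tags, not scaled by library totals, was 0.02 (-1.05 to 1.13). RANGAP1 and BRD9 were higher against 0 in IP tags, at 0.32 (0.09 to 0.55) and 0.67 (0.35 to 0.98), and relative to the shift they stood at -0.059 and 0.28 with intervals that included 0. With input taken into account BRD9 pointed the other way. The log2 ratio of the authors' deposited folds was -0.21, and the log2 odds ratio of its raw tags was -0.38 (-3.17 to 2.21). For RANGAP1 these values were 0.24 and 0.21 (-1.36 to 1.86). In IP tags ARID4B had 0.46 (-0.05 to 0.97), EHMT2 0.42 (-0.08 to 0.92), ARGLU1 0.14 (-0.26 to 0.53) and HMGB2 0.01 (-0.40 to 0.41). These 4 genes had intervals that included both references. The intervals leave room for changes of up to about 0.97 upward on the log2 scale, so equality is not shown.

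**Figure D4:**
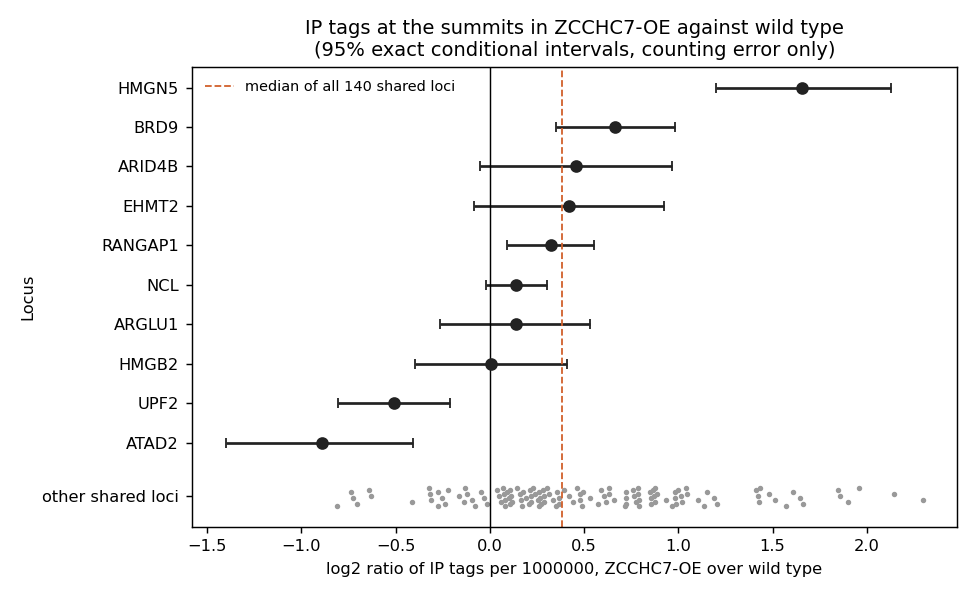
Log2 ratio of IP tags per 1000000 at the summits, ZCCHC7-OE over wild type, for the 10 genes (black, 95% exact conditional intervals from counting error only) and the other shared loci (grey points), with the solid line at 0 and the dashed line at the median of all 140 shared loci, 0.38. HMGN5 lies right of both lines, UPF2 and ATAD2 lie left of both, and ATAD2 is the lowest of all points.

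The members were then set beside the other genes of the nuclear genome with coding summits, mitochondrial genes left out, in 2 groups by the number of coding peaks. In either list 47 such genes had a coding summit. Of these, 29 were other genes with at most 2 coding peaks in either list and 8 had 3 or more, of which 7 enter the group values below. In both lists there were 26 such genes, the 10 members and 16 others: AFDN, AVEN, CAPN2, DEAF1, GIGYF2, KLHDC4, MAF, METAP2, MYC, MYO10, MYO6, PELP1, PSMB1, UBE2Q1, UBTF and ZFHX3. These 16 share the criterion of a coding peak and are not in the list, so the members are not all genes with narrow coding peaks.

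Member regions held an input tag over the summit in 9 of 10 cases in wild type (90.0%, 95% Clopper-Pearson interval 55.5 to 99.8%) and 7 of 11 in ZCCHC7-OE (63.6%, 30.8 to 89.1%). Over all regions the shares were 25.3% and 28.4%. Coding regions of the other genes with few peaks had one in 15 of 24 cases in wild type (62.5%, 40.6 to 81.2%) and 10 of 28 in ZCCHC7-OE (35.7%, 18.6 to 55.9%). Regions of genes with 3 or more coding peaks had one in 5 of 43 cases in wild type (11.6%, 3.88 to 25.1%) and again 10 of 28 in ZCCHC7-OE. The median number of IP tags in member regions was 136 in wild type versus 93 in ZCCHC7-OE, against 62.5 and 35.5 in the other genes with few peaks and 29 and 87 in genes with many. The members were selected on called peaks and all 10 are in both lists, while 12 of the 29 other genes with few peaks are, so these tag counts describe the selection. The intervals of the input shares overlap between the members and the other genes with few peaks in wild type, and between all 3 groups in ZCCHC7-OE. With regions counted as if independent, neither overlap nor its absence is a test of a difference between groups.

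Coding coverage set the members apart from genes with many peaks by the way the groups were made. The called regions held a median of 8.49% of the coding sequence per member gene in wild type versus 8.92% in ZCCHC7-OE, where ARGLU1 counts with both regions. In the other genes with few peaks the medians were 4.22% and 6.39%, and in genes with many peaks 80.9% and 89.0%. Region lengths differed less, with medians of 233 bp for the members, 208.5 bp for the others with few peaks and 184 bp for those with many in wild type, and 224, 229.5 and 231 bp in ZCCHC7-OE.

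**Figure D5:**
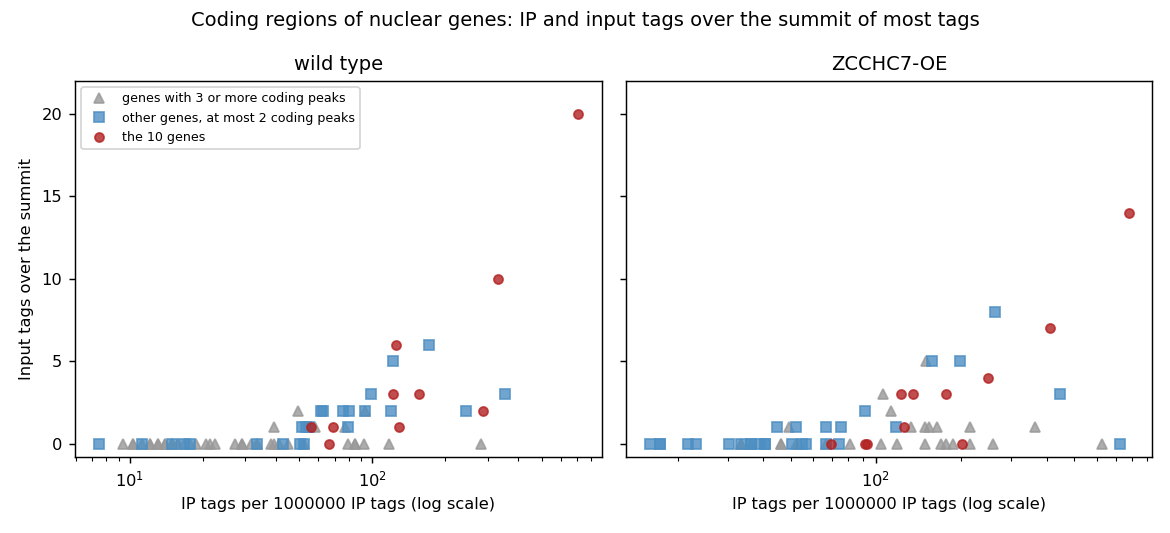
Each point is 1 called region with its summit in coding sequence, with IP tags per 1000000 at the summit on a log scale (x) and input tags over the same summit (y), in wild type (left) and ZCCHC7-OE (right); red circles are the 10 genes, blue squares the other genes with at most 2 coding peaks and grey triangles genes with 3 or more. NCL has the most input tags of these regions in both panels, 20 in wild type versus 14 in ZCCHC7-OE, RANGAP1 comes next in wild type with 10 and lies below a MYO10 region in ZCCHC7-OE (7 against 8), and most grey triangles lie at 0 input tags in wild type.

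All 10 members lie on the minus strand of the genome. Of the 37 other genes with a coding summit in either list 17 did (45.9%), of the 16 others with one in both lists 10 did, and of all 19951 protein-coding genes 49.5% do. The lists carry no strand, so the strand is that of the annotated gene, and the match was noticed after the values were seen and was not tested.

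Relatives of these genes were looked up by family. Of 147 further genes in 10 lists of related families, all annotated, 1 had a region in wild type versus 1 in ZCCHC7-OE (0.680% in each), the same gene in both, where 0.456% and 0.431% of all protein-coding genes had one, so that a count of 1 sets the relatives apart in neither direction. That gene was UBTF, the RNA polymerase I factor that shares the nucleolus with nucleolin. Its summit lay in exon 21 of 21, at codon 728 of 764 in wild type (chr17:44207324-44207484) and codon 731 in ZCCHC7-OE (chr17:44207312-44207465). UBTF had 16 tags in wild type versus 11 in ZCCHC7-OE, 15.0 and 15.9 per 1000000, with 0 input tags in both, and its region overlapped AC004596.1, from which it cannot be told apart. Members included, the high-mobility group list had regions in 2 of 11 genes (HMGB2 and HMGN5), the nucleolar list in 2 of 16 (NCL and UBTF) and the bromodomain list in 2 of 20 (ATAD2 and BRD9). All lists but that of acidic histone chaperones were built around members chosen for a peak, so these counts could not be 0. Without the members, UBTF alone is left in the nucleolar list, and 0 genes in the other 2. One gene each had a region among 14 factors of nonsense-mediated decay, 12 of the Ran cycle, 12 of histone H3 lysine methylation, 21 of SWI/SNF complexes, 16 of ARID and SIN3 complexes and 21 Mediator and SR-related proteins, and in each of these it was the member. None of 16 acidic histone chaperones had one (0 of 16), a list that holds SET, NASP and PTMA, whose proteins are also rich in acidic residues. That count depends on the list: PTMS, which encodes the acidic relative of PTMA and was added after values were seen, had a region in both lists. Its summit lay in an intron of the transcript used, not in coding sequence, with 166 IP tags and 12 input tags in wild type, and 129 and 8 in ZCCHC7-OE. In these libraries a gene of low RNA level may have too few tags to be called, so an empty list does not show that SRSF1 leaves those messages free.

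Other sources of signal at the same positions were looked up in the annotation. None of the member regions overlapped another annotated gene. The nearest gene within a member's span was SNORD82, a small nucleolar RNA in an NCL intron, 173 bp from the NCL regions, followed by TRIP13 at 851 bp from BRD9 and MIR6889 at 1265 bp from RANGAP1. By name, the annotation holds 2 copies of NCL (NCLP1 and NCLP2), 2 of BRD9 (BRD9P1 and BRD9P2) and 1 of HMGB2 (HMGB2P1), so tags of those genes are uncertain to the extent that reads of a copy match. None of the authors' 46 deposited splicing events lay in one of the 10 genes (0 of 46), so a peak on their exons cannot be set beside a change in exon inclusion here. The authors' p-values are identical for all 46 events, so they cannot tell a changed event from an unchanged one. For 10 of 19951 protein-coding genes and so few events, a count of 0 is no result about these genes.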

How the data were processed

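RNA from 4 RKO libraries was sequenced, 1 per group. Per the file headers, the authors ran MACS 2.1.0.20150420 on each genotype with IP as treatment and input as control, at a p-value threshold of 0.005, with no fragment model and all duplicates kept. FastQC 0.11.5 and HOMER are named in the submitters' processing notes, and the aligner is not given in the sources used here. The lists were tied to the genotypes by the initials in their headers. The deposited pileup is a signal at the depth of the input. The deposited fold is a ratio with 1 added on each side, and the deposited significance is -log10 of the p-value and q-value. The authors' splicing tables give p-values, identical for every event and thus no working test of change, and inclusion differences, a score. They were used only to look for events in the 10 genes.

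Computation used SciPy 1.17.1, Python 3.11.15, Matplotlib 3.10.9 and NumPy 2.4.6. Pileup times IP total over input total gave IP tags (whole within 0.1), and the background implied by fold gave input tags in 1 fragment length or in 1000 or 10000 bp around the summit. The decoding was tested on simulated data. Tags were divided by the library total, except in the odds ratios of raw IP and input tags between genotypes. Intervals are exact Poisson, exact conditional binomial and Clopper-Pearson at 95%, and cover counting error only, since reads without molecular identifiers are not independent molecules. Summits were placed on the transcript with the longest coding sequence in the deposited annotation, whose build is not stated: of 18676 protein-coding symbols also found in RefSeq's GRCh38.p14 gene table, 18672 overlap the same gene's position in that table. The 10 genes, the family lists and the comparisons were chosen with earlier results of these data known. Named genes are the members, family genes with a peak, and genes near a member's peak; HBB, PTMS, the 16 other genes and the strand count were added after values were seen. No protein or genome sequence was used, so residue composition was not computed. Alternatives are given in the closing section.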

Additional observations from a re-analysis of the deposited data

How the results depend on the processing

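Of 13 counts under other settings, 12 stayed within 1.5 times. Requiring -log10 p of at least 10 left 6 genes with a peak in wild type in place of 10, without HMGB2, HMGN5, EHMT2 and ARGLU1. Of 30 log2 tag ratios under other settings, 8 changed sign, and the 10 by the summit of highest fold could not. Relative to the median of all shared loci, 4 changed sign, to -0.24 at NCL, -0.37 at HMGB2, -0.059 at RANGAP1 and -0.24 at ARGLU1; of these only RANGAP1 had an interval that excluded 0. UPF2 kept its sign at -0.89 and BRD9 at 0.28, both outside their original intervals. As a ratio of deposited folds, 4 changed sign, to 0.021 at UPF2, -0.21 at BRD9, -0.15 at ARID4B and -0.38 at ARGLU1; UPF2 and BRD9 had intervals that excluded 0. HMGB2 went to 1.30 and HMGN5 to 0.020, outside their intervals. The summit of highest fold was the only summit of each member region, so that setting returned the same values and checked nothing. The fold divides by local input, which rests on 0 to 6 tags at these genes, and the cause of each move was not tested. Depth limits every comparison: 1 to 4 input tags lie behind most ratios. No paired analysis was possible because each group has 1 library and no replicate number, and there was no replicate to leave out. Other window lengths for residue composition were not run, for lack of protein sequence.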
